A study of Mus musculus with 10 samples.

Results

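Natural killer (NK) cells carry lectin-like receptors that read self and stress ligands on other cells, and several of these receptors are also found on other leukocytes. This account covers 9 genes among the 28585 genes counted in 10 libraries of fluorescent cells sorted out of the ischemic hemisphere of female mouse brains. 5 of them encode lectin-like receptors (Klrk1, Klrd1, Klre1, Klrb1b and Klri2), 1 encodes the adaptor Hcst, and 3 are NK identity genes (Ncr1, Gzma and Prf1). The members were selected on their CPM (counts scaled to library size) in these same libraries across the 3 groups, so their levels and differences are a description and carry no test.

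The groups were as follows. Microglia, the resident macrophages of the brain, came from CX3CR1CreERT2:Rosa26-tdT mice aged 13 to 14 weeks (replicates 39, 40 and 41), in which a Cre under the fractalkine receptor gene turns on a red reporter. Parabiotic CD11c cells were CD11c-eYFP+ cells from 15 to 16 week old C57BL/6 mice whose circulation was joined to that of Tg(Itgax-Venus)1Mnz partners (replicates 3, 11 and 15), so by the design the sorted cells derive from the partner. Transgenic CD11c cells were CD11c-eYFP+ cells of Tg(Itgax-Venus)1Mnz mice aged 13 to 14 weeks (replicates 23, 24, 26 and 27). Itgax, which drives the yellow reporter, is active in dendritic cells and also in other leukocytes, NK cells among them, and no staining was used in the sort. Parabiotic replicate 15 has no cell type in its labels and was placed by its title. Transgenic replicates 26 and 27 carry library numbers apart from those of the other 8 libraries. This split is called the library run below as a short name only, since the labels do not say what the numbers stand for. The labels do not say whether animals were pooled.

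As background, Klrk1 encodes NKG2D, an activating receptor for stress-induced ligands, which signals through the small adaptor DAP10, the product of Hcst. Klrd1 encodes CD94, which forms dimers with NKG2 receptors and binds Qa-1. Klrb1b encodes an inhibitory NKR-P1 receptor, while Klre1 pairs with either the inhibitory Klri1 or the activating Klri2. Ncr1 encodes the NK receptor NKp46, Gzma the protease granzyme A and Prf1 the pore-forming protein perforin, both of which NK and cytotoxic T cells store in granules.

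Library totals lay between 31534625 and 41730688 counts, so 3 counts, the limit that a count of 0 allows, stood at 0.0719 to 0.0951 CPM depending on the library. Levels are given as CPM after TMM scaling of library sizes, and differences as log2 differences with their standard error (SE) from the fit to all genes. 12 markers of conventional dendritic cells summed to 21.0 to 31.6 CPM in microglia, 1229 to 1717 in parabiotic and 166 to 861 in transgenic libraries. 10 microglia markers summed to 20900 to 23277, 2062 to 3604 and 6335 to 18297 CPM in the same order, so the transgenic libraries also held much microglial RNA. In such bulk samples, fewer cells of a type and less RNA per cell cannot be told apart.

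The 5 lectin receptor genes lie in the natural killer gene complex of chromosome 6 (GRCm38, GENCODE M21 annotation). Klrb1b spans chr6:128813706-128826331 on the minus strand. Klre1 (chr6:129577905-129585827, plus strand), Klrd1 (chr6:129591782-129598775, plus strand) and Klrk1 (chr6:129610323-129623864, minus strand) sit together within 45.96 kb. Klri2 follows at chr6:129729041-129740484 on the minus strand. Hcst lies on chromosome 7 (chr7:30417712-30419854, minus strand), 126 bases from the gene of the related adaptor Tyrobp. Ncr1 (chr7:4337724-4345164), Prf1 (chr10:61297833-61304680) and Gzma (chr13:113093825-113100981) lie elsewhere.

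The 250 bases upstream of the RefSeq start are shown for 4 of the genes: 2 lectin receptors that were high in the CD11c libraries, the adaptor, which varied little, and Ncr1, which was near 0 in all 3 groups. The sequences are RefSeq, build GRCm38.p6, printed 5′ to 3′ on the strand of the gene. Capitals mark matches to the RUNX core TGTGGT or the ETS core AGGAAGT, searched on both strands. The windows are chr6:129623865-129624114 (Klrk1), chr6:128826316-128826565 (Klrb1b), chr7:30419855-30420104 (Hcst) and chr7:4337465-4337714 (Ncr1).
Klrk1: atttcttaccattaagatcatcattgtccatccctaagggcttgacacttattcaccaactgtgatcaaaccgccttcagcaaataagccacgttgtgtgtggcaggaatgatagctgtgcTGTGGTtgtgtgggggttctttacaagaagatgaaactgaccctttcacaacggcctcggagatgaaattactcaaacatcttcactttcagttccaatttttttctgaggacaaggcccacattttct
Klrb1b: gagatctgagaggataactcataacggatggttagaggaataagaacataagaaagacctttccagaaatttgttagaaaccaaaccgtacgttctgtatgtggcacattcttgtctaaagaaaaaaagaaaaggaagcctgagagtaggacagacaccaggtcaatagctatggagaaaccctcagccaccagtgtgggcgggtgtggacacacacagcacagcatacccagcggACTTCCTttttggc
Hcst: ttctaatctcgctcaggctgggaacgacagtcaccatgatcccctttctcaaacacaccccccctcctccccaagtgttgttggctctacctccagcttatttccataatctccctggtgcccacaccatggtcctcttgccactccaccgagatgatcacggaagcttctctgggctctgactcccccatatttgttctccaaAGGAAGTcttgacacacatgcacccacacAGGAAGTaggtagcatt
Ncr1: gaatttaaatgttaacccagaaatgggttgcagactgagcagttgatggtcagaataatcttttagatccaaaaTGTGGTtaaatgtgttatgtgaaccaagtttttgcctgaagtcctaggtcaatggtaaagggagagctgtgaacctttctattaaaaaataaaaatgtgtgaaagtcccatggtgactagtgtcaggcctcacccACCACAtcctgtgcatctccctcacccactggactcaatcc
The Klrk1 window held 1 RUNX core, 124 to 129 bases upstream, and the Ncr1 window held 2, at 171 to 176 and, on the other strand, 36 to 41 bases upstream. The Klrb1b window held 1 ETS core on the opposite strand, 8 to 14 bases before the RefSeq start. The last 16 bases of that window lie inside the longer GENCODE model of Klrb1b given above, and this match is among them. The Hcst window held 2 ETS cores, at 40 to 46 and 11 to 17 bases upstream. 14.0% of 32851 RefSeq windows of this length held the RUNX core and 7.69% held the ETS core. 5 of the 7 members with a window held the RUNX core (Klrk1, Klre1, Ncr1, Gzma and Prf1; the Klre1 window lies wholly inside its GENCODE model), so the matches did not separate genes that were high in these libraries from genes near 0. Searches for AGGTGTGA (T-box) and TGANTCA (AP-1) found no match in the 7 windows, and the paired GAAA repeat of IRF factors matched in Gzma alone. These 3 motifs occur in 1.12%, 6.75% and 2.98% of all windows. A match describes the letters and is not a measured binding site.

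Klrk1, the NKG2D gene, had 6, 18 and 5 counts in microglia, 3171, 1987 and 2049 in parabiotic CD11c cells, and 1360, 1389, 399 and 686 in transgenic CD11c cells (replicates 23, 24, 26 and 27). Its mean level was 0.293 ± 0.224 CPM (SD, n = 3) in microglia, 71.2 ± 17.2 (SD, n = 3) in parabiotic and 25.5 ± 14.3 (SD, n = 4) in transgenic cells. No library of one group overlapped those of another, and transgenic replicates 26 and 27 were the lowest of the CD11c libraries. The log2 difference from microglia was 7.91 ± 0.68 (SE) in parabiotic and 6.43 ± 0.64 in transgenic cells. Without microglia replicate 40, which had the most Klrk1 counts of its group, the parabiotic difference was 8.70 and the transgenic one 7.23.

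Klrd1, the CD94 gene, followed the same order of groups. It had 11, 26 and 5 counts in microglia, 2243, 1648 and 2309 in parabiotic cells and 1396, 963, 339 and 423 in transgenic cells. The mean levels were 0.422 ± 0.334 (SD, n = 3), 61.5 ± 10.3 (SD, n = 3) and 20.9 ± 14.3 CPM (SD, n = 4). The groups did not overlap, and again replicates 26 and 27 had the lowest values of the transgenic group. The log2 difference from microglia was 7.18 ± 0.74 in parabiotic cells, or 7.97 without microglia replicate 40, and 5.62 ± 0.69 in transgenic cells, or 6.43 without that library and 6.25 with a term for the library run.

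Klrb1b, the inhibitory NKR-P1 receptor gene, had the most counts of the 5 receptors in microglia and parabiotic cells. Microglia had 40, 49 and 22 counts, parabiotic cells 3644, 2646 and 2371, and transgenic cells 1144, 970, 170 and 1392. This gave 1.11 ± 0.404 (SD, n = 3), 85.6 ± 16.9 (SD, n = 3) and 24.1 ± 13.6 CPM (SD, n = 4). Here replicate 26 alone stood low among the transgenic libraries, at 4.30 CPM, while replicate 27 was the highest, at 33.9 CPM. The log2 differences from microglia were 6.26 ± 0.70 in parabiotic and 4.43 ± 0.64 in transgenic cells. The annotated read-through gene Gm44511 covers 599 of the 2228 exon bases of Klrb1b on the same strand, and 24.5% of the 75-base stretches of Klrb1b transcripts also occur in Gm44511, Klrb1a or Klrb1c, so its counts may be under- or overstated. The other 8 genes shared at most 0.886% of such stretches with another gene.

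Klre1 and Klri2 were lower. Klri2, the activating partner of Klre1, had 0, 4 and 2 counts in microglia, 242, 214 and 212 in parabiotic and 162, 127, 42 and 74 in transgenic cells. Its levels of 6.95, 6.50 and 6.43 CPM made it the most even of the 5 receptors across parabiotic libraries. The log2 difference from microglia was 6.69 ± 0.78 in parabiotic and 5.39 ± 0.75 in transgenic cells, and without microglia replicate 40 it was 7.60 and 6.31.

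Klre1 had 0, 4 and 0 counts in microglia, 53, 34 and 17 in parabiotic cells and 32, 11, 5 and 31 in transgenic cells. All its microglia counts came from replicate 40. The fitted log2 difference from microglia was 4.55 ± 1.11 in parabiotic and 3.57 ± 1.08 in transgenic cells. Against the other 2 microglia libraries, both at 0, the parabiotic level was at least 22.2-fold higher and the transgenic level at least 11.2-fold higher, with a floor of 3 counts over those libraries. Klre1 was the only lectin receptor of the 5 whose parabiotic and transgenic libraries overlapped.

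Hcst, the adaptor of NKG2D, differed little beside its receptor. It had 370, 244 and 352 counts in microglia, 423, 478 and 509 in parabiotic and 429, 322, 824 and 636 in transgenic cells. The levels were 9.69 ± 1.94 (SD, n = 3), 14.0 ± 1.70 (SD, n = 3) and 14.2 ± 5.20 CPM (SD, n = 4). The parabiotic libraries lay just above the microglia, with 12.1 CPM in the lowest of them against 11.1 in the highest of the microglia, and the transgenic libraries overlapped both groups. Log2 differences from microglia were 0.53 ± 0.30 in parabiotic and 0.56 ± 0.28 in transgenic cells, and the transgenic value was 0.09 with a term for the library run.

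Side by side, microglia had 0.0142 to 0.0738 counts of Klrk1 for each count of Hcst, parabiotic libraries 4.03 to 7.496 and transgenic libraries 0.484 to 4.31, a ratio of counts that is not scaled for gene length. Tyrobp, which encodes DAP12, the other adaptor of NK receptors and a microglial gene as well, was at 737 to 1084 CPM in microglia, 879 to 1135 in parabiotic and 838 to 1586 in transgenic libraries. Per kb of exon, Hcst was 0.00803 to 0.0169 of Tyrobp across all 10 libraries. Both adaptors were thus present in microglia, whose lectin receptor counts were near 0.

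**Figure D1:**
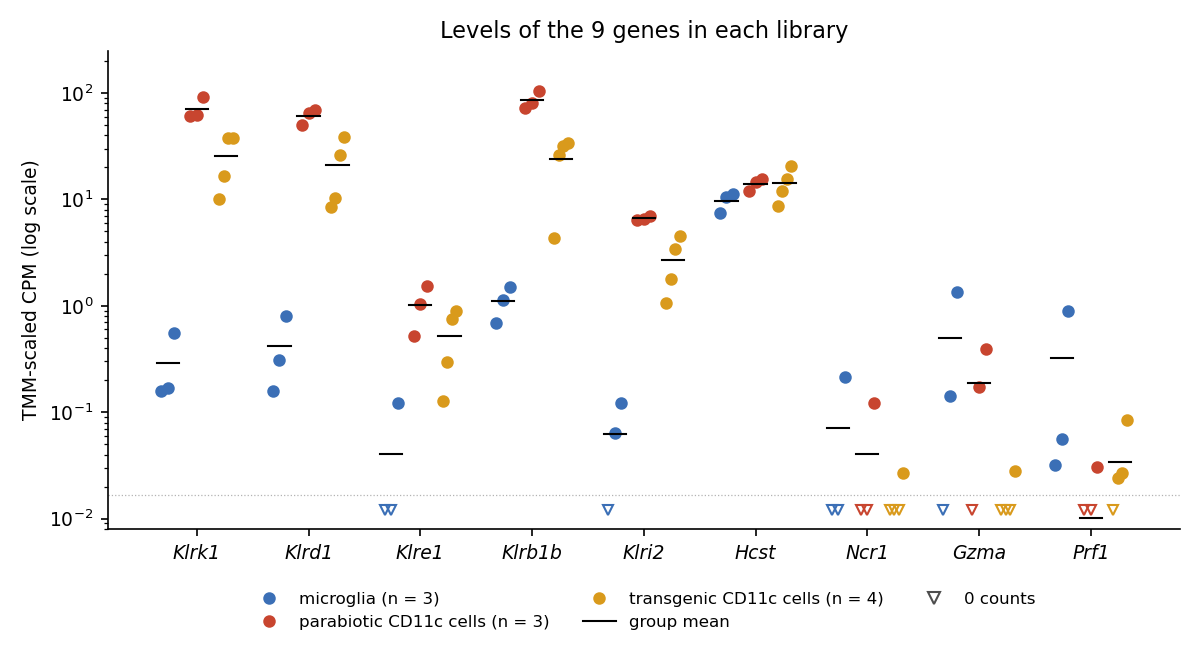
Level of each of the 9 genes in each library, as TMM-scaled CPM on a log scale, with 1 point per library, black bars for group means and open triangles for libraries with 0 counts. The 5 lectin receptors lie lowest in microglia, Hcst lies between 7.49 and 20.8 CPM in every library, and Ncr1, Gzma and Prf1 are low in all 3 groups.

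For all 6 members that passed the low-count filter, parabiotic libraries did not overlap microglia, and for 5 of 6 transgenic libraries did not. Of all 15151 tested genes, 60.2% did not overlap between parabiotic cells and microglia, 30.3% between transgenic cells and microglia and 22.7% between the CD11c groups. These are the patterns for which the genes were picked, and nothing is read from the counts. With edgeR at an adjusted p under 0.05, 35.3% of the tested genes were called between parabiotic cells and microglia. The share was 13.7% between transgenic cells and microglia and 10.1% between transgenic and parabiotic cells.

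The 3 identity genes did not pass the filter. Ncr1 had 0, 7 and 0 counts in microglia, 0, 4 and 0 in parabiotic and 0, 1, 0 and 0 in transgenic libraries. Gzma had 5, 44 and 0, then 6, 13 and 0, then 1, 0, 0 and 0 counts in the same order, and Prf1 had 2, 29 and 1, then 0, 1 and 0, then 3, 1, 0 and 1. Most of the microglial counts of the 3 genes thus came from replicate 40, and the parabiotic ones from replicate 11. Over the group, Ncr1 stood at 0.0390 CPM in parabiotic cells, with a 95% exact Poisson interval of 0.0106 to 0.0998 that covers counting error alone. The limit that 0 counts allow, 3 counts, is 0.0292 CPM over the parabiotic group and 0.0194 over the transgenic group.

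Set against each other, the 5 lectin receptors had 22840 counts in parabiotic libraries and the 3 identity genes 24, or 952 lectin receptor counts per identity count. Without parabiotic replicate 11 the counts were 16311 and 6. In transgenic libraries they were 11115 and 7, and in microglia 192 and 88, or 91 and 8 without microglia replicate 40. Parabiotic replicate 15 and transgenic replicate 26 had 6958 and 955 lectin receptor counts with none of the 3 identity genes.

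**Figure D2:**
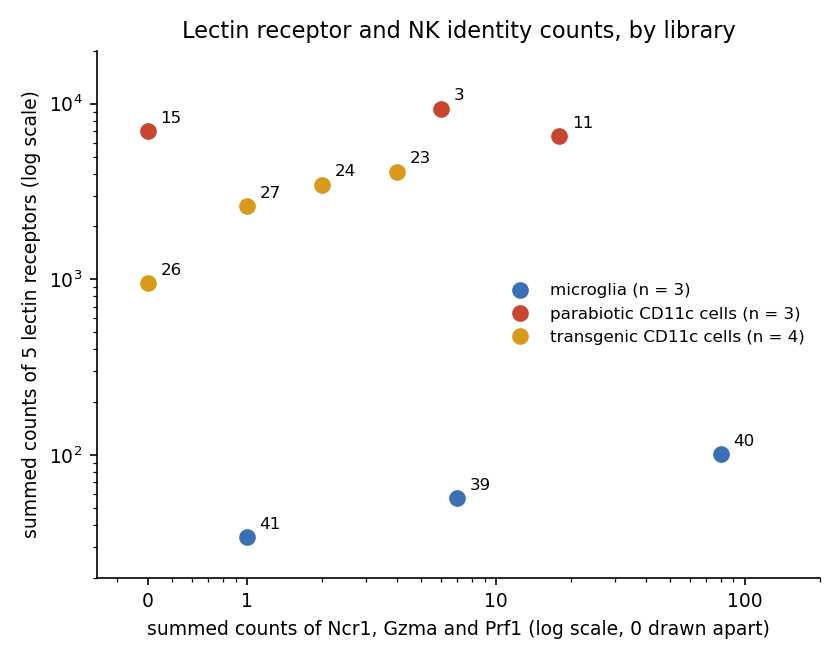
Summed counts of the 5 lectin receptors (vertical, log scale) against summed counts of Ncr1, Gzma and Prf1 (horizontal, log scale with 0 drawn apart) in each library, with replicate numbers. Microglia lie lowest on the vertical axis, with 34 to 101 counts, and microglia replicate 40 lies farthest to the right, with 80 counts.

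Markers of lymphoid cells and neutrophils were checked in the same libraries. 11 of 12 NK markers were used, with Ncr1, Gzma and Prf1 among them (Klra8 was not analysed here). They summed to 0.411 to 6.47 CPM in microglia, 2.15 to 3.95 in parabiotic and 0.329 to 1.78 in transgenic libraries. Their highest sum was in microglia replicate 40. Klrb1c, the NK1.1 antigen of C57BL/6 mice, had 8, 23 and 2 counts in microglia, 4, 2 and 5 in parabiotic and 10, 17, 4 and 0 in transgenic libraries. Other NK markers had higher means in parabiotic cells than in microglia. These were Klrc1 (0.375 against 0.030 CPM), Il2rb (1.00 against 0.547), Txk (0.401 against 0.174) and, slightly, Gzmb (0.403 against 0.383). The remaining NK markers, Klrb1c among them, had lower means in parabiotic cells. Each of these had its most microglial counts in replicate 40. Leaving that library aside, Ncr1, Gzma, Nkg7, Eomes and Itga2 had higher means in parabiotic cells, on few counts. Klrb1c and Prf1 stayed lower there. The 12 T cell markers summed to 3.19 to 13.2, 11.1 to 25.1 and 2.77 to 24.4 CPM, and Cd28 and Cd5 made up most of the counts of these markers in every library. Several more specific T cell genes were highest in parabiotic replicate 11: in replicates 3, 11 and 15, Cd3e had 0, 41 and 0 counts, Cd3g 2, 26 and 10, and Cd8b1 2, 21 and 3. Trac, with 17, 15 and 6 counts in these libraries, was highest in replicate 3. Bcl11b had 14 counts in microglia replicate 40 and 9 in parabiotic replicate 11. T cells can also carry Klrk1 and Klrd1. 8 of 9 markers of other innate lymphoid cells summed to 15.4 to 26.5, 64.0 to 110 and 27.6 to 50.1 CPM. Most of the counts in the CD11c libraries were Il7r, while Il5 was at 0 in all libraries but transgenic replicate 26, with 2 counts. Il13 was not analysed here. 8 neutrophil markers summed to 0.423 to 2.47 CPM in microglia, 17.5 to 50.4 in transgenic libraries and 50.3, 806 and 159 in parabiotic replicates 3, 11 and 15. Mmp8 made up most of the counts in the transgenic libraries and in parabiotic replicate 3. Camp and Ngp were at 0 in all transgenic libraries and S100a9 had at most 9 counts, while S100a8 had 729 in transgenic replicate 27. Without replicate 11, the log2 difference between parabiotic cells and microglia was 8.02 for Klrk1, 7.31 for Klrd1, 4.55 for Klre1, 6.31 for Klrb1b, 6.71 for Klri2 and 0.51 for Hcst. The part of lymphoid cells and neutrophils in the lectin receptor levels was otherwise not tested.

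Within the CD11c libraries, transgenic cells had lower levels than parabiotic cells for 5 of 5 lectin receptors. The log2 difference was -1.48 ± 0.44 for Klrk1, -1.56 ± 0.50 for Klrd1, -1.83 ± 0.51 for Klrb1b, -1.30 ± 0.51 for Klri2 and -0.98 ± 0.79 for Klre1. With a term for the library run, which leaves replicates 23 and 24 to carry the comparison, these values were -0.92, -0.92, -1.56, -0.74 and -0.78 in the same order. Hcst differed by 0.02 ± 0.28, or by -0.44 with the run term, so its sign depended on that term. Libraries did not overlap between the CD11c groups for Klrk1, Klrd1, Klrb1b and Klri2.

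The transgenic libraries were far from alike. Relative to the parabiotic mean, Klrk1 was at 53.3%, 52.6%, 14.2% and 23.5% in replicates 23, 24, 26 and 27. Klrd1 was at 63.3%, 42.2%, 13.9% and 16.7%, and Klri2 at 68.2%, 51.6%, 16.0% and 27.2%. For these 3 receptors replicate 26 was lowest and replicate 27 next.
The summed dendritic cell markers stood at 55.6%, 52.3%, 10.7% and 21.8% of the parabiotic mean, in the same order of libraries as the 3 receptors. Klrb1b did not follow that order, at 37.3%, 30.5%, 5.0% and 39.6%, nor did Klre1, at 87.2%, 29.0%, 12.4% and 73.7%. In both, replicate 27 stood above replicate 24. The place of replicate 27 by dendritic cell markers depended on the markers taken. P2ry10 and Napsa gave 4653 and 3993 of its 13884 summed counts. These 2 genes, Flt3, Zbtb46, Kit, Dpp4 and Ccr7 had more counts in replicate 27 than in replicate 26. Xcr1, Clec9a, Cd209a, Itgae and Batf3 had fewer, with 102 against 357 for Xcr1 and 244 against 590 for Cd209a. Replicate 27 also had the highest sum of 8 monocyte markers of all libraries, 3482 CPM, against 859 in replicate 26 and 1908 to 2433 in parabiotic libraries. Most of its sum was Fn1, F13a1 and Chil3, and Fn1 was at a mean of 1043 CPM in microglia too. Vcan was also highest in replicate 27, with 162 counts. Ccr2 and Ly6c2, in contrast, had their lowest counts of the CD11c libraries there, 5376 and 250. The sum is thus not a plain measure of monocyte content. The part of dendritic cell and monocyte content in these levels was not tested.

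Per 100 CPM of summed dendritic cell markers, Klrk1 stood at 3.65 to 5.30 CPM in parabiotic and 4.41 to 6.09 in transgenic libraries. On that scale Klrd1 was at 3.75 to 4.12 and 3.05 to 5.17, and Klri2 at 0.378 to 0.529 and 0.422 to 0.641. The 2 CD11c groups thus overlapped for these 3 genes once set against the dendritic cell markers, whereas they did not overlap in CPM. Klrb1b was at 4.23 to 6.54 in parabiotic libraries and at 3.71, 3.22, 2.59 and 10.0 in transgenic replicates 23, 24, 26 and 27. Replicate 27 was thus above and the other transgenic libraries below the parabiotic range for Klrb1b. The marker sum of replicate 27 was mostly P2ry10 and Napsa, so its values on this scale depend on those genes. Klre1 was at 0.0303 to 0.0886 in parabiotic and 0.0366 to 0.223 in transgenic libraries. Microglia, with few counts of receptors and of these markers alike, stood at 3.31 to 5.10 for Klrb1b, among the CD11c values. Their highest value was 0.416 for Klri2, inside the parabiotic range. For Klrk1 and Klrd1 it was 1.87 and 2.71, below both CD11c groups.

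**Figure D3:**
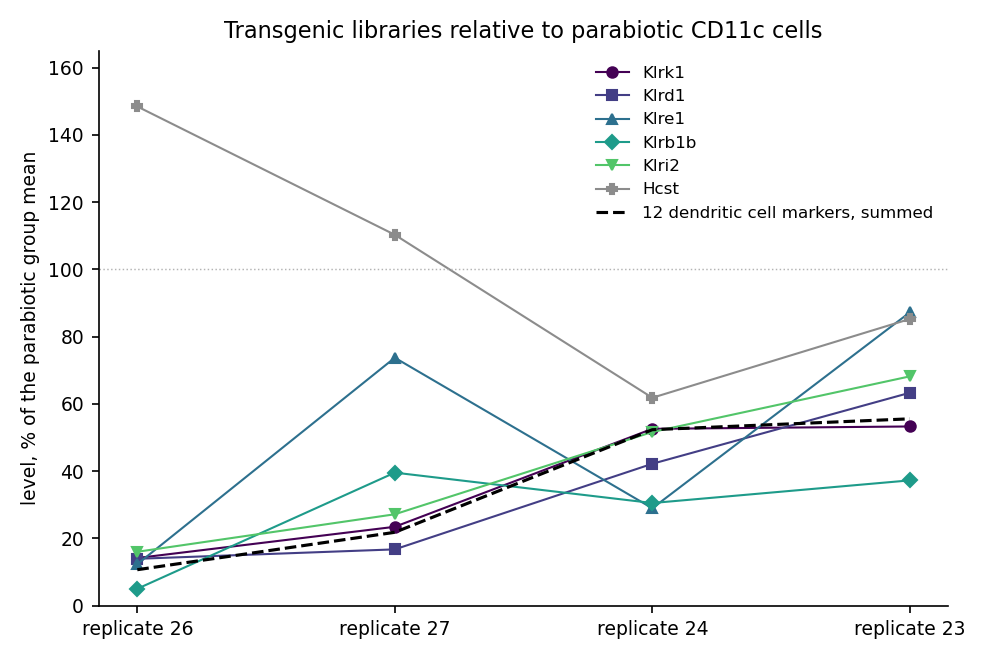
Level of the 5 lectin receptors and Hcst in each transgenic library as a percent of the parabiotic group mean (dotted line at 100%), with libraries ordered by their summed dendritic cell markers (dashed line). Klrk1, Klrd1 and Klri2 keep to the order of the dashed line, Klrb1b and Klre1 stand higher in replicate 27 than in replicate 24, and Hcst is highest in replicate 26. The dashed line in replicate 27 rests mostly on P2ry10 and Napsa.

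Orders between genes were read per kb of exon and only where the union of exons and the median transcript length gave the same order. For Klri1, the inhibitory partner of Klre1, and Klri2, both lengths gave the same ratio. That rule was thus no check on their order, which rests on the annotated lengths. Per kb, Klri1 exceeded Klri2 in all 3 parabiotic libraries, by 2.35, 2.49 and 4.05 times. It also did so in transgenic replicates 23, 24 and 26, by 3.98, 4.23 and 3.78 times, but not in replicate 27, where the ratio was 0.631. In raw counts Klri1 was below Klri2 in every CD11c library. The parabiotic counts were 122, 114 and 184 against 242, 214 and 212. Klri2 exceeded Klre1 in all 3 parabiotic libraries, by 4.08 to 11.1 times over the union of exons and 1.51 to 4.12 times over the median transcript. No order is given for Klrk1 and Klrd1, whose per-kb ratio in parabiotic libraries was 0.158 to 0.252 on the first length and 0.625 to 0.996 on the second.

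The genes whose pattern over the 10 libraries was most like that of a member were found by the root mean square difference of centred log2 CPM among 10969 candidates. For Klrk1 they were Plbd1 (0.257), H2-Aa (0.295), H2-Eb1 (0.302), H2-Ab1 (0.395) and Dcstamp (0.435), where the median candidate was at 3.29. The 3 H2 genes encode MHC class II chains. Klrd1 itself was at 0.428 from Klrk1, Klri2 at 0.864, Klrb1b at 1.05 and Hcst at 3.14. For Klrd1 the nearest were the same 3 MHC class II genes, at 0.342 to 0.361, then Flt3, the receptor tyrosine kinase of dendritic cell development, at 0.368, and Btla at 0.384. Flt3 is also in the list of dendritic cell markers.
Klrb1b had other neighbours. They were Ltb4r1 (0.307), a leukotriene B4 receptor gene, Slc16a14 (0.326), Mefv (0.354), which encodes pyrin, and the transcription factor genes Ahr (0.445) and Runx3 (0.452). Klre1, with few counts, was nearest to Clec4n (0.498), Adora2b (0.527), Thbd (0.532), Mfsd6 (0.554) and Slc22a15 (0.557). Hcst was nearest to Zbtb8os (0.123), Npm1 (0.126), Rplp1 (0.127), Mcts1 (0.131) and Rpl22 (0.135), where the median candidate was at 0.557.

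Other killer cell lectin-like receptors were examined as a list of 25 genes, of which 18 were in the table and 7 were tested. Between parabiotic cells and microglia 6 were called higher and 1 lower, where 17.4% of all tested genes were higher and 17.9% lower. Klri1, Klra3, Klrc2 and Klrb1f had means of only 0.010 to 0.069 CPM in microglia. They passed the filter through the CD11c libraries, so a call lower was not open to them and nothing is read from the count. Klra2, an inhibitory Ly49 receptor, was at 0.903 to 1.23 CPM in microglia, 4.92 to 7.04 in parabiotic and 6.18 to 9.16 in transgenic libraries. Its log2 difference from microglia was 2.57 ± 0.28 in parabiotic cells (adjusted p = 5.0e-05) and 2.86 ± 0.27 in transgenic cells (adjusted p = 0.000142, edgeR). Its transgenic mean of 7.71 CPM was not below its parabiotic mean of 6.30 CPM. Klri1 had 1 count in microglia, 122, 114 and 184 in parabiotic and 138, 115, 34 and 10 in transgenic libraries. The ratio of its summed parabiotic to microglial counts, scaled by depth, was 398, with an exact interval of 71.0 to 15752 for counting error.
Klra3, another Ly49 gene, had 2 counts in microglia and 93 in parabiotic libraries, a ratio of 44.0 with an interval of 11.9 to 369. 6.39% of its 75-base stretches occur in other Klra genes. Klrb1f was higher by 4.28 ± 0.66 in parabiotic cells (adjusted p = 0.000491, edgeR). Klrc2, which encodes the CD94 partner NKG2C, was at 58, 23 and 8 counts in parabiotic and 2, 2 and 0 in microglia libraries. Klra17, a Ly49 receptor gene known from plasmacytoid dendritic cells, was at 181, 135 and 156 counts in parabiotic libraries, and at 135, 106, 32 and 7 in transgenic ones. Klrg2, which lies outside the complex, was the one gene called lower, by -3.49 ± 0.66 (adjusted p = 0.00197, edgeR).

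Transgenic cells against microglia gave 4 genes of this list higher, 0 lower and 3 not called, where 8.88% of all tested genes were higher and 4.79% lower. The 4 were Klra2, Klra3, Klrb1f and Klri1, and the limit given above for Klra3, Klrb1f and Klri1 holds here too. Between the CD11c groups 1 was called, Klrg2, higher in transgenic cells by 2.17 ± 0.61 (adjusted p = 0.0475, edgeR), and 10 of 18 alternatives ended that call. The background there was 7.63% higher and 2.42% lower. The list medians of the log2 difference were 4.28, 2.81 and -1.19 for the 3 comparisons, beside -0.02, 0.02 and 0.04 over all tested genes. The 11 genes in the table that were not tested had at most 23 counts in a library, for Klrb1c in microglia replicate 40.

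By position, the stretch of chromosome 6 from 128609227 to 131247362 holds 121 annotated genes, 62 of them in the table. Apart from the 5 members, 28 were tested, and 17 were called higher in parabiotic cells than in microglia, 4 lower and 7 not called. That is 60.7% higher, beside 17.4% of all tested genes, given as a count with no test. Klra2, Klra3, Klra17, Klrb1f, Klrc2 and Klri1 of the list above are among the 17, as is Clec2i of the ligand list below. The counts are thus not separate observations. Tmem52b, Gm44135, Gm15987 and Gm43914, also called higher, had means of only 0.028 to 0.059 CPM in microglia. Clec9a and Gm44066, called higher too, were at 0.153 and 0.180 CPM there. All of these passed the filter through the CD11c libraries, so a call lower was not open to them. The same limit was given above for Klri1, Klra3, Klrc2 and Klrb1f, and nothing is read from the share of 60.7%. The genes higher included Clec9a and Clec12a, lectin genes known from dendritic cells, at 5.98 and 105.7 CPM in parabiotic cells against 0.153 and 8.84 in microglia. Clec7a, the dectin-1 gene, was at 817 against 283 CPM. Cd69 and Olr1, the latter a scavenger receptor gene, were lower, at 26.7 against 67.9 and 12.01 against 39.7 CPM. These genes of the region were named after their values were seen.

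**Figure D4:**
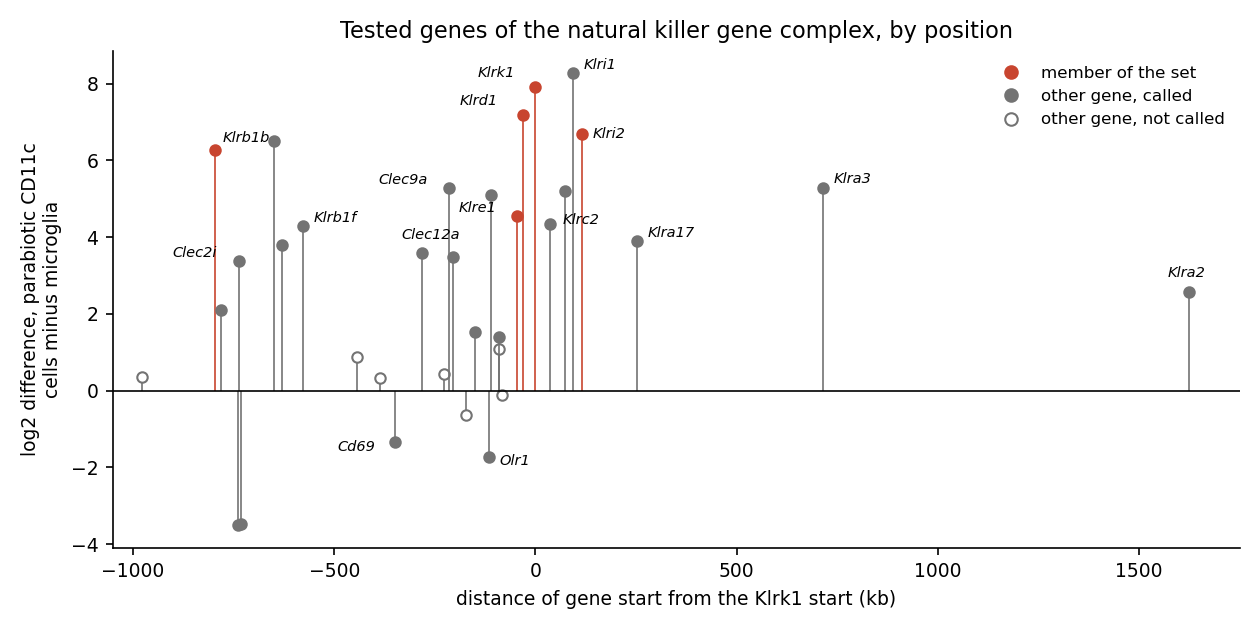
Fitted log2 difference between parabiotic CD11c cells and microglia (vertical) for each tested gene of the natural killer gene complex, by distance of its start from that of Klrk1 in kb (horizontal). Red points are the 5 members, filled grey points other genes that were called and open points genes not called. 17 of 28 other genes are called higher. Some of them passed the filter through the CD11c libraries, so a call lower was not open to those. Several fitted values rest on few microglial counts, among them those of Klri1 (1), Klra3 (2) and the members Klre1 (4) and Klri2 (6). Tmem52b, Gm44135, Klrc2 and Gm15987, at 0.028 to 0.041 CPM in microglia, are others.

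Of 26 tested adaptors and signalling molecules downstream of these receptors, 7 were higher, 5 lower and 14 not called in parabiotic cells against microglia. The shares of 26.9% higher and 19.2% lower lay near the 17.4% and 17.9% of all tested genes. Sh2d1b1, which encodes the SLAM family adaptor EAT-2, was at 2.02 to 2.60 CPM in microglia and 25.9 to 29.8 in parabiotic cells (log2 difference 3.61 ± 0.26, adjusted p = 4.9e-06, edgeR). Vav3, a guanine nucleotide exchange factor, rose by 3.60 ± 0.34 (adjusted p = 2.3e-05) and Fyn, a Src family kinase, by 1.47 ± 0.19 (adjusted p = 0.000164). Plcg1, a phospholipase C gene, was lower by -2.41 ± 0.27 (adjusted p = 7.2e-05), Lyn by -0.68 ± 0.13 (adjusted p = 0.00213) and Lcp2, which encodes SLP-76, by -0.79 ± 0.16 (adjusted p = 0.0025). Tyrobp did not pass the test, at 0.20 ± 0.26 (adjusted p = 0.576, edgeR).
Against microglia, transgenic cells gave 3 higher (Sh2d1b1, Vav3 and Fyn), 3 lower (Plcg1, Pik3r1 and Inpp5d) and 20 not called, where 8.88% of all tested genes were higher and 4.79% lower. The count of 6 was 3 without microglia replicate 40, and the term for the library run ended the calls of Pik3r1 and Inpp5d. Between the CD11c groups, Sh2d1b1 and Vav3 were lower in transgenic cells and Plcg1 and Lcp2 higher, where the background was 2.42% lower and 7.63% higher. The term for the library run ended the calls of Vav3 and Lcp2. That count of 4 was 0 without parabiotic replicate 3 or 11, 1 without parabiotic replicate 15 or transgenic replicate 24, and 2 without microglia replicate 40 or transgenic replicate 23.

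Ligands of the lectin receptors were examined as a list of 18 genes, with 13 in the table and 8 tested. In parabiotic cells against microglia 2 were higher, 2 lower and 4 not called, where 17.4% of all tested genes were higher and 17.9% lower. Clec2i, which encodes an NKR-P1 ligand, was at 4.79 to 6.23 CPM in microglia, 49.6 to 68.8 in parabiotic and 20.6 to 27.6 in transgenic libraries. The 3 groups did not overlap for Clec2i, and it passed the test in all 3 comparisons, with log2 differences of 3.37 ± 0.21, 2.18 ± 0.19 and -1.19 ± 0.17 (adjusted p = 2.6e-06, 0.000103 and 0.00137, edgeR). Ulbp1, an NKG2D ligand gene, was lower in parabiotic cells, at 3.10 to 4.49 against 11.7 to 13.4 CPM in microglia (adjusted p = 0.000235, edgeR), and transgenic cells were above parabiotic ones by 1.68 ± 0.23 (adjusted p = 0.00108).
Clec2l fell by 4.71 on the log2 scale (SE 0.74, adjusted p = 0.0006, edgeR). Raet1e, another NKG2D ligand gene, was higher by 3.51 ± 1.06 (adjusted p = 0.0242, edgeR) on 62 parabiotic and 5 microglial counts. It passed the filter through the CD11c libraries, so a call lower was not open to it. Its call was lost without microglia replicate 39 or 40 or parabiotic replicate 3, and 34.2% of its 75-base stretches occur in Raet1d or H60b. H2-T23, the Qa-1 gene whose product CD94 receptors bind, was lower in transgenic cells than in microglia by -0.84 ± 0.23 (adjusted p = 0.0346, edgeR), a call that 8 of 18 alternatives ended.

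Of the cytotoxic and NK identity list (25 genes, 24 in the table, 14 tested), 7 were higher, 2 lower and 5 not called in parabiotic cells against microglia, where 17.4% of all tested genes were higher and 17.9% lower. No granzyme gene was among the 7. Tbx21, which encodes the transcription factor T-bet, had 180, 103 and 277 counts in parabiotic and 3, 11 and 0 in microglia libraries, a log2 difference of 5.27 ± 1.18 (adjusted p = 0.00526, edgeR). Tbx21 and Cd226, also among the 7, had means of 0.141 and 0.070 CPM in microglia. They passed the filter through the CD11c libraries, so a call lower was not open to them and nothing is read from the count. Il18rap, a subunit of the interleukin-18 receptor, was higher by 2.66 ± 0.52 (adjusted p = 0.0025, edgeR) and Cd244a, the SLAM family receptor 2B4, by 0.98 ± 0.19 (adjusted p = 0.00207). Tnfsf10, which encodes the death ligand TRAIL, was lower by -2.28 ± 0.47 (adjusted p = 0.00327, edgeR). Ctsw, a cathepsin gene of cytotoxic lymphocytes, was lower by -1.90 ± 0.54 (adjusted p = 0.018, edgeR), a call lost without microglia replicate 40 or parabiotic replicate 15.
The 9 calls of this list became 5 without microglia replicate 39 or parabiotic replicate 15. Gzmb, the granzyme B gene, had 7, 31 and 0 counts in microglia and 3, 32 and 5 in parabiotic libraries, with replicates 40 and 11 highest, as for Gzma. 3 genes were called between transgenic cells and microglia, Cd244a and Srgn higher and Tnfsf10 lower, where 8.88% of all tested genes were higher and 4.79% lower. The count of 3 was 0 without microglia replicate 39 or 40, and the term for the library run ended the call of Tnfsf10 and of Srgn. Of 18 alternatives, 12 ended the call of Srgn, 6 that of Cd244a and 4 that of Tnfsf10. Between the CD11c groups 0 of 14 were called by edgeR, where 4 had an unadjusted p under 0.05, while DESeq2 and limma-voom each called 2. The 10 untested genes in the table had at most 25 counts in a library, for Txk in parabiotic replicate 3.

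**Figure D5:**
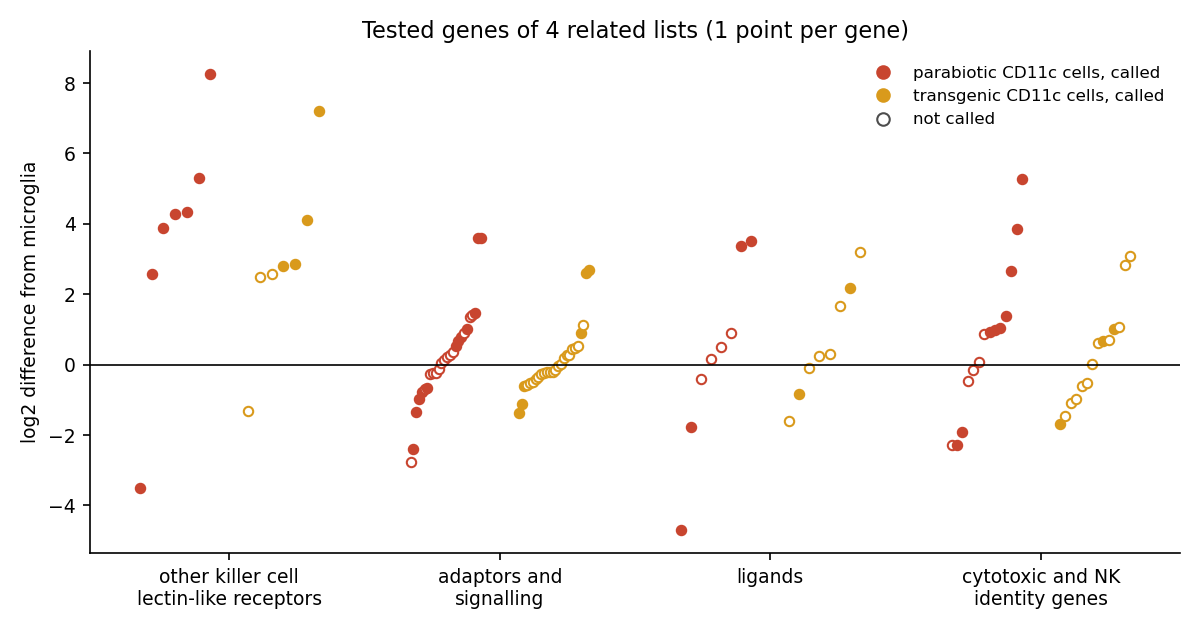
Fitted log2 difference from microglia for each tested gene of the 4 lists, in parabiotic (red) and transgenic (yellow) CD11c cells, sorted within each list, with filled points for genes called at an adjusted p under 0.05 and open points for genes not called. In parabiotic cells 6 of 7 other lectin-like receptors lie above 0 and were called, and the adaptors and signalling list has calls on both sides of 0. Klri1, Klra3, Klrc2 and Klrb1f passed the filter through the CD11c libraries, as did Raet1e, Tbx21 and Cd226. Both comparisons share the microglia libraries.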

How the data were processed

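Per the labels' protocols, fluorescent cells were sorted after enzymatic dissociation and Percoll separation, cDNA was made with a template-switching kit from 1 or 5 ng of RNA, and libraries were built with a kit that does not mark strand. FastQC 0.11.5, STAR 2.5.3a, DESeq2 and the genome build GRCm38 appear in the submitters' processing notes, and the counting program, its annotation and its use of strand were not given in the sources used here. Raw counts for 28585 Ensembl genes in 10 libraries were deposited, each gene with at least 2 counts in all. GENCODE M21 gave a symbol for 28492 identifiers and none for 93.

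Libraries were grouped by labels and titles. All 10 entered one fit in edgeR 4.0.16 (R 4.3.3) with TMM scaling, filterByExpr, robust glmQLFit and glmQLFTest. 15151 genes were tested and p-values were adjusted over them by Benjamini-Hochberg, with a threshold of 0.05. They reflect the spread between these samples alone, which the labels do not tie to separate animals. No 2 replicates agreed within sampling noise: chi-square per degree of freedom was 16.8 to 304. Likeness used log2 CPM (prior count 2) and genes of at least 1 CPM on average. Alternatives were RLE and upper quartile scaling, DESeq2 1.42.0, limma-voom (limma 3.58.1), no filter or at least 5 CPM in 3 libraries, 2 groups only, a library run term and each library left out. The scripts were tested on simulated data.

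The 9 genes, the 4 related lists and the marker lists were chosen with earlier results of these data known. Named genes are all members, and up to 3 called genes of the lowest p per list, comparison and direction. Klrc2, Klra17, Gzmb and Tyrobp were added after their values were seen.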

Additional observations from a re-analysis of the deposited data

Results flagged for a closer look

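Among 33 genes, members and listed genes named above, the 4 transgenic libraries were examined for 1 library that stands apart by Dixon's criterion (gap over range above 0.829), which chance meets in about 1 in 20 groups. 4 genes met it. Ncr1 was at 0.0269 CPM in replicate 24 and Gzma at 0.0279 CPM in replicate 23, each from 1 count where the other 3 libraries had 0. Cd244a was lowest in replicate 26, at 47.1 CPM, and H2-T23 was lowest in replicate 27, at 82.8 CPM. None of the 5 lectin receptors nor Hcst met it.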

How the results depend on the processing

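The log2 differences of the 6 tested members kept their sign under 18 alternatives, or 17 for Klre1, except that of Hcst between the CD11c groups, which ranged from -0.44 to 0.20. Of 41 calls of named listed genes, 26 held under every alternative tried and 15 were ended by at least 1, none with a change of sign. Counts of calls by list moved more, and the cause was not tested. For parabiotic cells against microglia, the filter at 5 CPM left 2 calls in place of 7 for the other lectin-like receptors and 2 in place of 4 for ligands, since fewer genes were tested. Leaving out single libraries gave 5 to 9 calls for the cytotoxic list. For transgenic cells against microglia, all calls numbered 2070, but 3437 by DESeq2, 1303 with the run term, 1229 with 2 groups only, and 746 to 2684 with a library left out. The other lectin-like receptors gave 1 call under the 5 CPM filter in place of 4. Ligands gave 5 calls by DESeq2, 1 with the run term or 2 groups only, and 1 to 4 with a library left out, in place of 2. Adaptors gave 3 to 9 with a library left out, in place of 6. The cytotoxic list gave 5 by DESeq2, 1 with 2 groups only and 0 to 4 with a library left out, in place of 3. Between the CD11c groups, all calls numbered 1523, but 2419 by DESeq2, 999 with 2 groups only, and 830 (without parabiotic replicate 3) to 2510 (without transgenic replicate 27) with a library left out. The other lectin-like receptors gave 2 by DESeq2, 0 without a filter, with the run term or with 2 groups only, and 0 to 1 with a library left out. Adaptors gave 7 by DESeq2, 2 with 2 groups only and 0 to 4 with a library left out. The cytotoxic list gave 1 with RLE scaling, 2 by DESeq2, 2 by limma-voom, 1 with 2 groups only and 0 to 2 with a library left out. The 5 CPM filter removed Klre1, so it has no value there. No paired analysis was possible because the groups share no replicate numbers. Depth limits the identity genes: at 0 to 7 counts for Ncr1 a difference between groups was not detectable.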
